A study of Mus musculus with 4 samples.

Results

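The imprinted growth genes grouped with Phlda2 are 10 mouse genes: Phlda2, Cdkn1c, Igf2, H19, Peg3, Mest, Grb10, Plagl1, Dlk1 and Ascl2. The members were chosen by measured values. The set was built around Phlda2, whose probe had the lowest mean ratio of XY to XX wild type gonads. It was filled with named genes of the same class. Of the 10 genes, 9 had a probe in the annotation used here and 8 had a value on all 4 arrays, among 9757 genes with such values. H19 was not matched by its symbol to any probe. Peg3 had a probe that was blank on all 4 arrays.

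Gonads of mouse embryos, freed of the mesonephros, were taken at 12 days post coitum and compared by two-colour hybridization on spotted oligonucleotide arrays. XY Wnt4 +/+ gonads and XX Wnt4 -/- gonads (hereafter Wnt4 null) were each set against XX Wnt4 +/+ gonads (XX wild type), on 2 arrays per comparison with the dyes exchanged. Each genotype was a pool of gonads of many embryos, so animals are not told apart. The labels give no strain and no description of the Wnt4 allele, and XX wild type RNA serves as the reference of both comparisons.

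A genomically imprinted gene is used mainly from the copy inherited from the mother or mainly from the copy inherited from the father, according to marks that the germ line places on the DNA. Many imprinted genes act on growth: several that are used from the maternal copy restrain it, and several that are used from the paternal copy promote it. Fetal germ cells, which lie in the gonad, erase these marks before setting new ones. Phlda2, Cdkn1c, Ascl2, Igf2 and H19 lie close together at the distal end of mouse chromosome 7, where the long RNA Kcnq1ot1, made from the paternal copy, keeps Phlda2, Cdkn1c and other nearby genes silent on that copy. Peg3 lies elsewhere on chromosome 7, Mest on chromosome 6, Grb10 on chromosome 11, Plagl1 on chromosome 10 and Dlk1 on chromosome 12.

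Sequences upstream of 2 maternally expressed members of the distal cluster are given because their ratios lay far apart: Phlda2 had the lowest ratio of the array, and Ascl2 had a ratio near 0. Each is the 250 bases before the annotated start in RefSeq on GRCm38.p6, from the minus strand, 5′ to 3′, at chr7:143502525-143502774 for Phlda2 and chr7:142969265-142969514 for Ascl2. Capitals mark matches, on either strand, to the TATA box, spelled TATAAA, to the GC box, spelled GGGCGG, and to the CCAAT box, which reads ATTGG where it lies on the other strand.
Phlda2: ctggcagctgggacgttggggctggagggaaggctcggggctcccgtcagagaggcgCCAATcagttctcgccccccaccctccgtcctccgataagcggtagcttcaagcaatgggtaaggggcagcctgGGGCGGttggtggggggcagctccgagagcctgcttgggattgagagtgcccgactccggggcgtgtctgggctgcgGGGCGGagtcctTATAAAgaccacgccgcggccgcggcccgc
Ascl2: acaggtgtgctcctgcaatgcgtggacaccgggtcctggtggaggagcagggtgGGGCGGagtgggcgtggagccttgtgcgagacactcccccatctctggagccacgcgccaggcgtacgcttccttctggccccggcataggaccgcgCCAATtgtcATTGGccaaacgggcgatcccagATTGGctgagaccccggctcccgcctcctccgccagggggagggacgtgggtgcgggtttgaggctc
The Phlda2 sequence holds TATAAA at -30 to -25, GGGCGG at -119 to -114 and at -42 to -37, and CCAAT at -193 to -189, counted from the start. The Ascl2 sequence holds GGGCGG at -196 to -191 and 3 CCAAT matches, and no TATAAA. Neither sequence holds CTTTGA, the core bound by TCF/LEF factors, which act downstream of Wnt signals. Of 32851 windows of the same length upstream of gene starts, 12.4% hold TATAAA, 32.7% GGGCGG, 33.8% CCAAT and 13.8% CTTTGA on either strand. The Phlda2 sequence has 21 CpG dinucleotides and that of Ascl2 has 19, where the median window has 6. Such matches describe letters only.

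All values are log2 ratios of XY or Wnt4 null to XX wild type, so a value below 0 stands for less signal in XY or Wnt4 null than in XX wild type gonads. The 4 arrays had values for 12866, 13967, 14131 and 14533 of 17664 spots, and 12264 spots had a value on all 4. No label names the numerator of the deposited ratio, and the direction used here is called likely. Its basis is that XX wild type is named as reference in the series' design and that XY replicate 1 was turned. The turn was made to match its sex-linked transcripts to replicate 2, and values of those transcripts are not given here. As deposited, XY replicate 1 and Wnt4 null replicate 1, which share a dye orientation, correlated at r = -0.62 across spots. In the direction used, the arrays of the XY pair correlated at r = 0.056 and those of the Wnt4 null pair at r = -0.456. Across the comparisons, arrays of the same dye orientation correlated at r = 0.62 (replicates 1) and r = 0.678 (replicates 2) in that direction. The arrays thus resembled each other more by dye orientation than by comparison. Signs of the ratio were opposite on the arrays of a pair at 56.2% of spots for XY and at 68.2% for Wnt4 null. With 1 array per dye orientation in a pair, and replicate number going with the orientation in both pairs, the dye cannot be told apart from other differences between replicates. If both arrays of a pair were turned, every sign given for that comparison would change and no size would. Phlda2 would then have the highest mean ratio of the XY comparison, with Cdkn1c and it on the high side in both.

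Phlda2 encodes a small protein with a pleckstrin homology domain that is expressed from the maternal copy and is known from the mouse placenta as a restraint on its growth. Its ratio was -3.09 and -3.27 on XY replicates 1 and 2, and -2.61 and -2.22 on Wnt4 null replicates 1 and 2. All 4 arrays gave a low ratio under both dye orientations, and the arrays of each pair lay within 0.4 of each other on the log2 scale. The mean was -3.18 ± 0.13 (SD, n = 2) in the XY comparison, a signal 9.06-fold lower in XY than in XX wild type gonads. In the Wnt4 null comparison the mean was -2.42 ± 0.28 (SD, n = 2), a signal 5.35-fold lower in Wnt4 null than in XX wild type gonads. By these means 0 of 12264 spots lay lower in the XY comparison and 2 lay lower in the Wnt4 null comparison. On the single arrays, 2, 1, 20 and 5 spots lay lower, in the order XY replicates 1 and 2 and Wnt4 null replicates 1 and 2. In pooled gonads, fewer cells that make an RNA and less of it per cell cannot be told apart.

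The XY values chose the members and are given as a description only. The Wnt4 null ratios share the XX wild type RNA with the XY ratios, so the members' Wnt4 null p-values are not free of that choice. The XY arrays also enter the limma estimate of the spread. For the Wnt4 null comparison, limma was fitted across all 12264 spots and p-values were adjusted over all of them by the Benjamini-Hochberg method. Without a dye term, Phlda2 had a standard error of 0.169, an unadjusted p of 9.99e-05 and an adjusted p of 0.607 in this fit, so it was not called at 0.05. With a dye term in limma the standard error was 0.133 and the adjusted p was 0.0462. limma without the dye term called 0 spots in either comparison (percent called 0), where 686 spots in the XY and 354 in the Wnt4 null comparison fell under 0.05 before adjustment. Once the dye term was in, limma called 330 spots in the XY comparison (2.69%) and 24 in the Wnt4 null comparison (0.196%), where 16 were higher and 8 lower. It is not stated if a pair's arrays were hybridised with separate extracts, so these p-values measure the spread between arrays, which may be technical.

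Cdkn1c encodes p57Kip2, a maternally expressed inhibitor of cyclin-dependent kinases that stops the cell cycle. Its ratio was -1.96 and -1.56 in the XY pair and -1.29 and -0.64 in the Wnt4 null pair. It was below 0 on all 4 arrays, and the XY arrays did not overlap with the Wnt4 null arrays. The mean was -1.76 ± 0.28 (SD, n = 2) in the XY comparison, 3.39-fold lower in XY than in XX wild type gonads, with 17 spots lower. The mean was -0.96 ± 0.46 (SD, n = 2) in the Wnt4 null comparison, 1.95-fold lower in Wnt4 null than in XX wild type gonads, with 37 spots lower. In the Wnt4 null comparison limma gave Cdkn1c an adjusted p of 0.99996 without the dye term and 0.0739 with it, so it was not called in either fit.

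**Figure D1:**
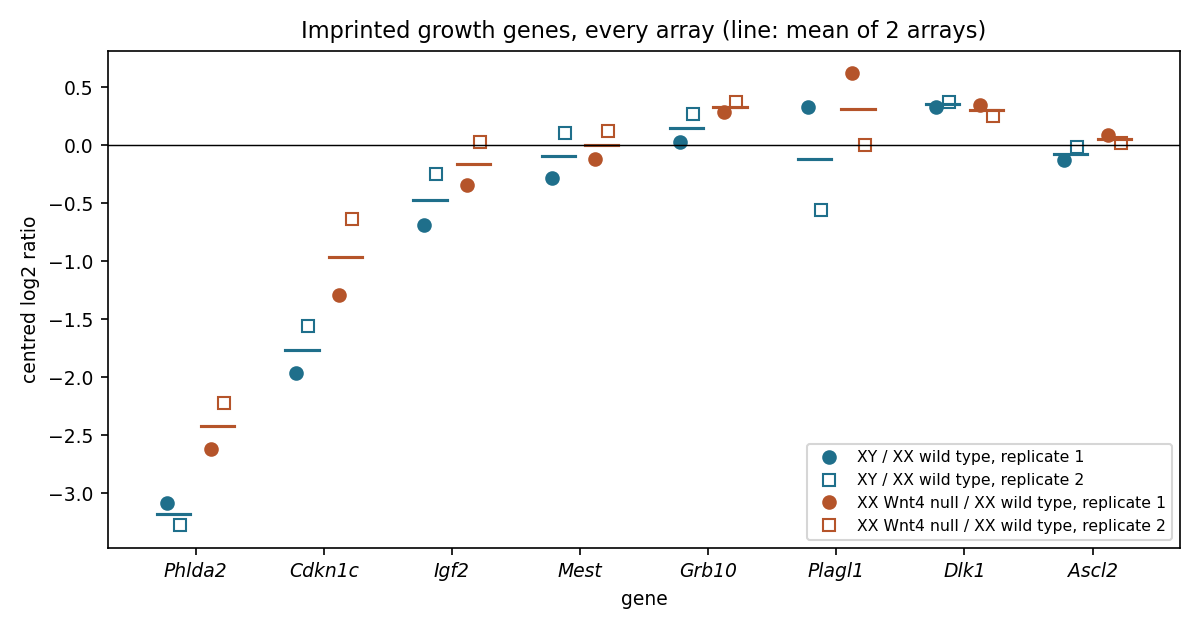
Centred log2 ratio to XX wild type (vertical axis) of the 8 imprinted growth genes with values (horizontal axis), on XY replicates 1 and 2 and Wnt4 null replicates 1 and 2, with a line at the mean of each pair. Phlda2 and Cdkn1c lie below 0 on all 4 arrays, and the other 6 genes lie between -0.69 and 0.62.

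Phlda2 and Cdkn1c were the 2 members at least 1.5-fold lower on both arrays of a pair, in the XY as in the Wnt4 null comparison, and 0 members were as much higher. Of all spots, 162 (1.32%) were lower by this rule in the XY comparison and 61 (0.497%) in the Wnt4 null comparison, while 168 (1.37%) and 68 (0.554%) were higher. Nothing is read from the member counts: the XY values chose the members, and the Wnt4 null ratios share the XX wild type RNA. The other 6 members passed the rule in neither direction. The median of the 8 means was -0.10 in the XY comparison and 0.03 in the Wnt4 null comparison, against 0.00 over all spots in both.

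Igf2, a growth factor made from the paternal copy, had ratios of -0.69 and -0.25 in the XY pair, with a mean of -0.47 ± 0.31 (SD, n = 2). On the Wnt4 null arrays it had -0.35 and 0.03, with a mean of -0.16 ± 0.27 (SD, n = 2). Igf2 was below 0 on 3 of 4 arrays, with limma adjusted p-values in the Wnt4 null comparison of 0.99996 without and 0.582 with the dye term.

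Grb10, a maternally expressed adaptor that inhibits signalling by the insulin and IGF receptors in many tissues, had ratios of 0.03 and 0.26 in the XY pair, with a mean of 0.15 ± 0.17 (SD, n = 2). Its Wnt4 null pair gave 0.28 and 0.37, with a mean of 0.33 ± 0.06 (SD, n = 2). Dlk1, a paternally expressed transmembrane protein with EGF-like repeats related to Notch ligands, had 0.33 and 0.37 in the XY pair and a mean of 0.35 ± 0.03 (SD, n = 2). Dlk1 had 0.35 and 0.25 in the Wnt4 null pair and a mean of 0.30 ± 0.07 (SD, n = 2). These 2 genes lay above 0 on all 4 arrays, by less than 1.5-fold. limma with the dye term gave adjusted p-values of 0.321 for Grb10 and 0.347 for Dlk1 in the Wnt4 null comparison, so neither was called.

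Plagl1, a paternally expressed zinc finger transcription factor, had ratios of 0.33 and -0.56 in the XY pair and of 0.62 and -0.00 in the Wnt4 null pair. Its arrays of a pair disagreed more than those of any other measured member in the XY comparison, with means of -0.12 ± 0.63 and 0.31 ± 0.44 (SD, n = 2 each). Mest, a paternally expressed gene whose product resembles hydrolases, had ratios of -0.29 and 0.10 in the XY pair and of -0.12 and 0.12 in the Wnt4 null pair. Its sign differed between the arrays of each pair, with means of -0.09 ± 0.27 and 0.00 ± 0.17 (SD, n = 2 each). Ascl2, a basic helix-loop-helix factor needed for the mouse placenta, had ratios of -0.13 and -0.02 in the XY pair and of 0.09 and 0.02 in the Wnt4 null pair. Its means were -0.07 ± 0.08 and 0.06 ± 0.05 (SD, n = 2 each). The adjusted p-values of limma with the dye term in the Wnt4 null comparison were 0.359 for Plagl1, 0.996 for Mest and 0.893 for Ascl2.

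In ascending order of the XY means the members ran Phlda2, Cdkn1c, Igf2, Plagl1, Mest, Ascl2, Grb10 and Dlk1. The arrays of Phlda2 did not overlap those of Cdkn1c, and those of Cdkn1c did not overlap those of Igf2. From Igf2 to Ascl2 each gene's arrays overlapped those of its neighbour, and the order among them is within the spread of the arrays. Grb10 lay above Ascl2 and Dlk1 above Grb10 without overlap of their arrays. The arrays of Plagl1 overlapped those of both Grb10 and Dlk1, and the arrays of Mest overlapped those of Grb10. The places of Grb10 and Dlk1 are thus not clear of all genes ranked below them. In the Wnt4 null comparison the order was Phlda2, Cdkn1c, Igf2, Mest, Ascl2, Dlk1, Plagl1 and Grb10, in which Phlda2 and Cdkn1c again stood clear of their neighbours. There was 1 further gap, between the arrays of Ascl2 and those of Dlk1, and all other neighbours overlapped. The arrays of Plagl1 reached across that gap.

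**Figure D2:**
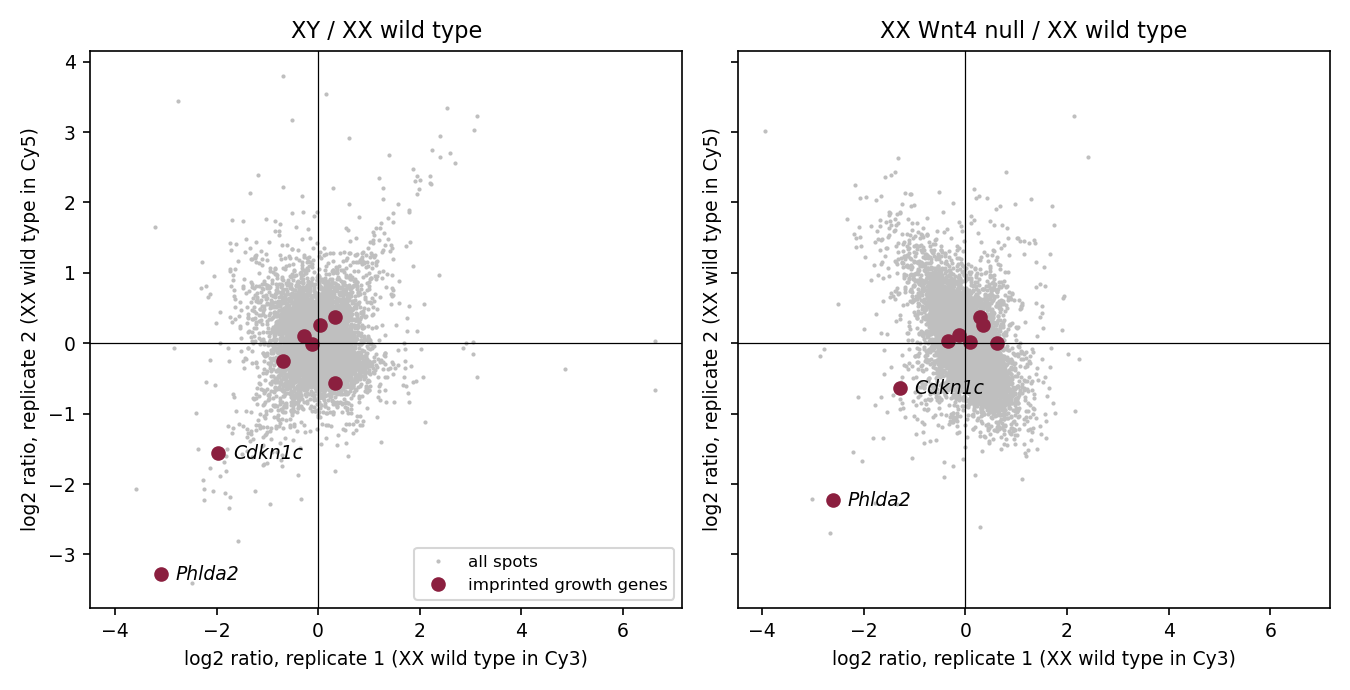
Log2 ratio to XX wild type on replicate 1 (horizontal axis) against replicate 2 with the dyes exchanged (vertical axis), for the XY pair (left) and the Wnt4 null pair (right), grey points being all spots. Phlda2 and Cdkn1c lie in the quadrant below 0 on both axes in both pairs, where the cloud of spots of the Wnt4 null pair runs along the opposite diagonal (r = -0.456).

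Because XX wild type RNA is shared by both comparisons, a value that is off in that RNA would shift both, and the values are therefore set side by side without a correlation. There were 43 spots at least 1.5-fold lower on both arrays of both pairs, Phlda2 and Cdkn1c among them. A ratio below -2 on all 4 arrays was found for 3 spots, which carry Phlda2, Fst and Irx3. Turning only the first array of a pair, in place of both, would bring the mean of Phlda2 to -0.09 in the XY and 0.19 in the Wnt4 null comparison, and that of Cdkn1c to 0.20 and 0.33.

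**Figure D3:**
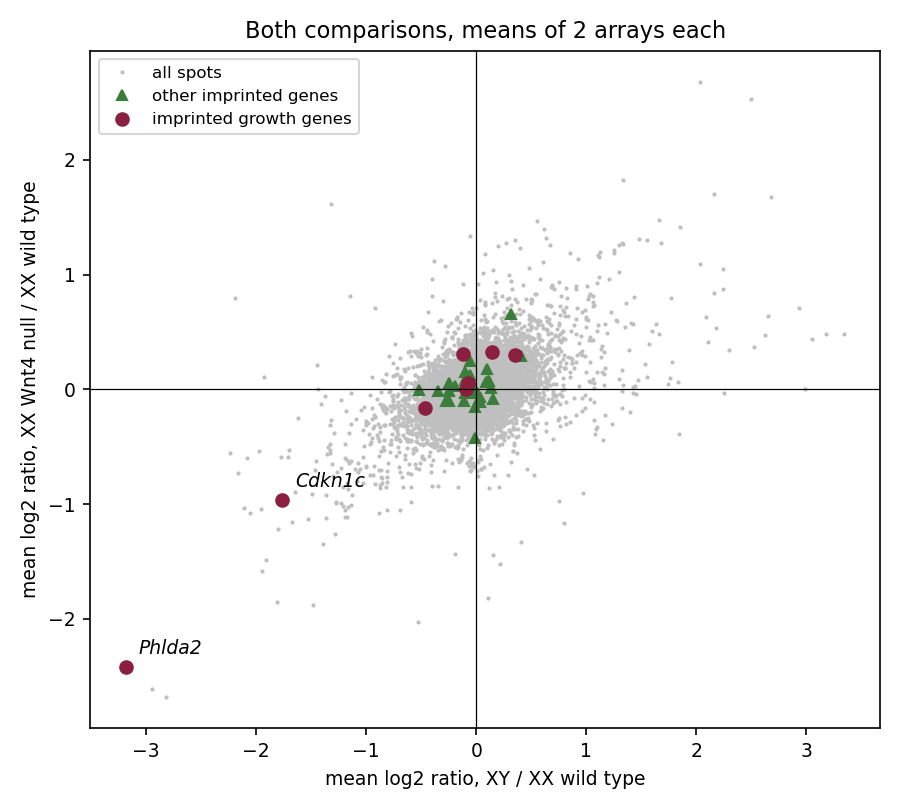
Mean log2 ratio of XY to XX wild type (horizontal axis) against that of Wnt4 null to XX wild type (vertical axis), for all spots (grey), 32 other imprinted genes (green triangles) and the 8 imprinted growth genes (dark red). Phlda2 lies at -3.18 and -2.42 and Cdkn1c at -1.76 and -0.96, and the 32 other imprinted genes lie between -0.52 and 0.41 and between -0.42 and 0.65.

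Among the neighbours of Phlda2 on distal chromosome 7, 1 gene, Slc22a18, lies between Cdkn1c and Phlda2 in the order of the RefSeq annotation. Slc22a18, an imprinted gene for a membrane transporter, had ratios of -0.46 and -0.05 in the XY pair and of -0.23 and 0.02 in the Wnt4 null pair. Its means were -0.25 ± 0.29 and -0.10 ± 0.18 (SD, n = 2 each), short of the 1.5-fold rule. Nap1l4, a histone chaperone gene on the far side of Phlda2, had means of -0.05 ± 0.39 in the XY and -0.00 ± 0.36 in the Wnt4 null comparison (SD, n = 2 each). Kcnq1, a potassium channel gene, had ratios of -0.69 and 0.57 in the XY pair and of -0.62 and 0.58 in the Wnt4 null pair. Its sign thus differed between the arrays of each pair.

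Over the 17 measured neighbours that are no members, the means ran from -0.25 to 1.01 in the XY comparison and from -0.19 to 0.90 in the Wnt4 null comparison. Of these 17, 1 was at least 1.5-fold higher on both arrays, in both comparisons, and 0 were as much lower. That gene was Lsp1, which encodes an actin-binding protein of white blood cells and endothelium. Among all spots, 1.37% were higher and 1.32% lower by this rule in the XY comparison. In the Wnt4 null comparison these shares were 0.554% and 0.497%, so nothing is read from the counts of neighbours. Lsp1 had ratios of 0.83 and 1.18 in the XY pair and of 0.68 and 1.12 in the Wnt4 null pair, with means of 1.01 ± 0.25 and 0.90 ± 0.31 (SD, n = 2 each). limma with the dye term gave it adjusted p-values of 0.0241 in the XY and 0.0711 in the Wnt4 null comparison. The low ratios of Phlda2 and Cdkn1c were not seen at the measured genes between and beside them, and no test of that difference was run.

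**Figure D4:**
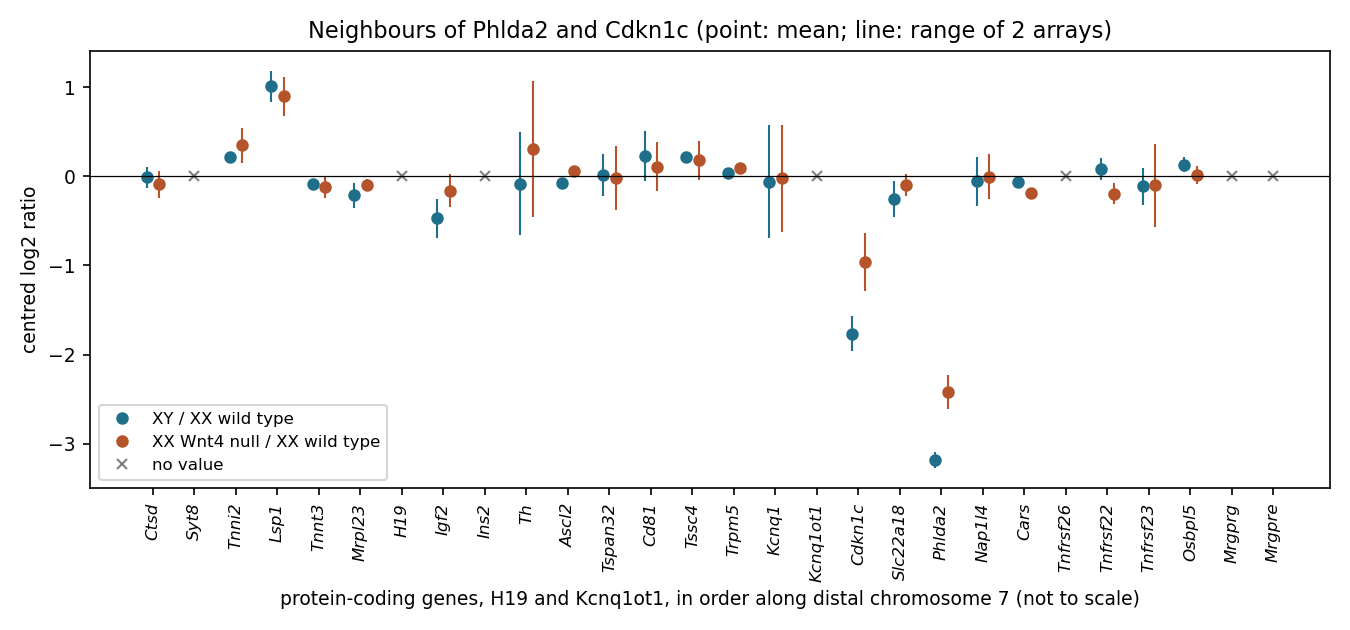
Centred log2 ratio to XX wild type (vertical axis; point, mean; line, range of 2 arrays) of genes in their order along distal chromosome 7 (horizontal axis, not to scale), with crosses for genes without a value. Phlda2 and Cdkn1c lie below all other genes in both comparisons, and Lsp1 lies above them.

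Outside the members, 60 further imprinted genes were listed, of which 41 had a probe and 32 a value on all 4 arrays. Of the 32, 0 passed the 1.5-fold rule in either direction in either comparison, and limma with the dye term called 0. The share of all spots that passed was 1.37% higher and 1.32% lower in the XY comparison. It was 0.554% higher and 0.497% lower in the Wnt4 null comparison. limma with the dye term called 2.69% and 0.196% of all spots, so nothing is read from these counts of 0. The median of the 32 genes was -0.05 in the XY comparison (range -0.52 to 0.41). In the Wnt4 null comparison it was 0.01 (range -0.42 to 0.65). The extremes were named after their values were seen. Dcn, which encodes the matrix proteoglycan decorin, had 0.73 and 0.57 in the Wnt4 null pair, and Ube3a, a ubiquitin ligase gene, had -0.31 and -0.53 there.

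The partners of Igf2 in insulin-like growth factor signalling (receptors, binding proteins and adaptors) numbered 24, of which 19 were measured. By the 1.5-fold rule 2 were higher and 1 lower in the XY comparison, and 1 was higher and 0 lower in the Wnt4 null comparison. Among all spots the shares were 1.37% higher and 1.32% lower in the XY comparison. They were 0.554% and 0.497% in the Wnt4 null comparison, and nothing is read from counts this small. Igfbp7, a secreted protein related to the IGF-binding proteins, had ratios of 1.94 and 2.38 in the XY pair and of 1.74 and 1.67 in the Wnt4 null pair. Its limma adjusted p-values with the dye term were 0.0169 in the XY and 0.0462 in the Wnt4 null comparison, and it was called in neither without that term. Grb14, a relative of Grb10 that also binds the insulin receptor, had 1.36 and 0.99 in the XY pair, and 0.45 and -0.07 in the Wnt4 null pair. Igf1, another ligand of the IGF1 receptor, had -0.63 and -0.90 in the XY pair and -0.46 and -0.31 in the Wnt4 null pair. With the dye term its limma adjusted p in the XY comparison was 0.0579, and Grb14 had 0.0216. The receptor that degrades Igf2, Igf2r, is imprinted too and was named after its values were seen; it had means of -0.35 ± 0.21 in the XY and -0.01 ± 0.11 in the Wnt4 null comparison (SD, n = 2 each).

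Relatives of the members from the same gene families were compared as well, 13 of 15 being measured, Grb14 among them. In the XY comparison 2 were higher and 1 lower by the 1.5-fold rule, and in the Wnt4 null comparison 0 passed it. The shares of all spots were 1.37% higher and 1.32% lower in the XY comparison. They were 0.554% and 0.497% in the Wnt4 null comparison, and nothing is read from these counts. Phlda3, a close relative of Phlda2 that is induced by p53, had ratios of 0.62 and 1.11 in the XY pair and of 0.03 and 0.50 in the Wnt4 null pair. Cdkn1a, the p21 relative of Cdkn1c, had -1.42 and -0.96 in the XY pair and -1.12 and -0.08 in the Wnt4 null pair. limma with the dye term gave adjusted p-values of 0.0311 for Phlda3 and 0.0338 for Cdkn1a in the XY comparison, and called neither in the Wnt4 null comparison.

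The patterns most like that of Phlda2 were sought by Euclidean distance over the 4 arrays among 10442 named probes. The 5 nearest were Fst, Irx3, Tnfrsf19, Sp5 and Gata2, at distances of 0.737, 1.39, 2.10, 2.15 and 2.24 log2 units. Fst, the gene of follistatin, which binds activin, had -2.49 and -3.40 in the XY pair and -3.02 and -2.21 in the Wnt4 null pair. Irx3, a homeobox transcription factor gene, had -3.58 and -2.07 in the XY pair and -2.67 and -2.70 in the Wnt4 null pair. Tnfrsf19, a receptor of the tumour necrosis factor family, had -1.81 on both XY arrays and -2.03 and -1.67 in the Wnt4 null pair.

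Sp5, a zinc finger transcription factor gene, had -2.13 and -1.77 in the XY pair and -1.81 and -1.35 in the Wnt4 null pair. Gata2, a GATA transcription factor gene, had -1.94 and -1.88 in the XY pair and -1.62 and -1.35 in the Wnt4 null pair. The probes nearest Phlda2 were picked by their Wnt4 null values as well as their XY values. Their Wnt4 null p-values are thus not free of that choice and are given as a description only. In that comparison limma with the dye term gave an adjusted p of 0.0462 for Tnfrsf19, Sp5 and Gata2 each. Fst had 0.0937 and Irx3 had 0.0711. Phlda2 had 0.0462 too, but so did Igfbp7, with ratios above 0, so the shared value is no measure of likeness.

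**Figure D5:**
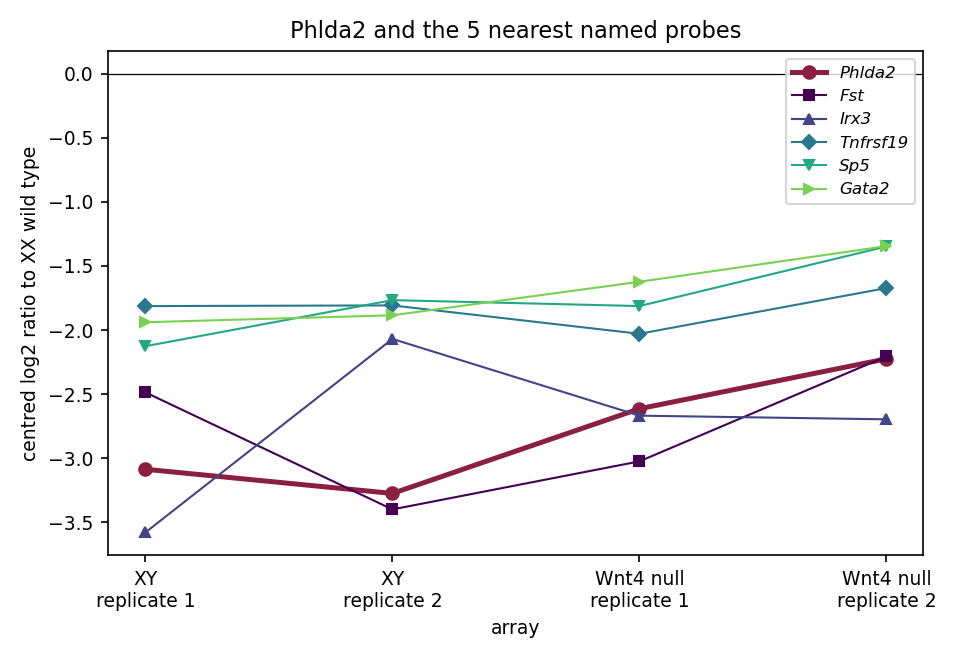
Centred log2 ratio to XX wild type (vertical axis) on each of the 4 arrays (horizontal axis) for Phlda2 and the 5 named probes nearest to it. All 6 lie below -1 on every array, and Fst and Irx3 come closest to Phlda2, with distances of 0.737 and 1.39.

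Markers of some cell types in these gonads passed the 1.5-fold rule in the same comparisons. Among all spots, 1.37% passed it as higher and 1.32% as lower in the XY comparison. The shares were 0.554% and 0.497% in the Wnt4 null comparison, so lists with 0 passing are not read as unchanged. Of 12 measured genes of the supporting cells of the ovary, 8 were lower in the XY comparison by the 1.5-fold rule (median -1.61, range -2.94 to 0.11). In the Wnt4 null comparison 7 of the 12 were lower (median -1.17, range -2.68 to 0.11). Fst, Irx3, Sp5 and Gata2 are on this list, which was drawn up with earlier results known. Germ cell markers were lower in 4 of 11 genes in the XY comparison (median -0.52, range -1.96 to 0.92) and in 1 of 11 in the Wnt4 null comparison (median -0.14, range -1.05 to 1.14). Of 11 early testis genes, 6 were higher in the XY comparison (median 0.93, range -0.81 to 3.18). In the Wnt4 null comparison 0 of these were higher and 1 lower (median 0.27, range -0.77 to 0.79). Stromal markers were higher in 6 of 13 genes in the XY comparison (median 0.66, range -0.00 to 2.18). They were higher in 2 of 13 in the Wnt4 null comparison (median 0.57, range 0.15 to 1.21). Endothelial markers were higher in 2 of 14 genes in the XY comparison (median 0.25, range -0.41 to 1.33). They were higher in 1 of 14 in the Wnt4 null comparison (median 0.12, range -0.29 to 1.83). Macrophage markers had a median of -0.03 in the XY comparison, where 0 of 9 lay above 0 on both arrays and 4 lay below. Their median was 0.45 in the Wnt4 null comparison, where 5 of 9 lay above 0 on both arrays and 0 lay below. The share of all spots by this sign rule is not given here, so nothing is read from these counts. None of the 9 passed the 1.5-fold rule in either comparison. Mesonephric markers were lower in 2 of 6 genes in the XY comparison (median -0.10) and in 0 of 6 in the Wnt4 null comparison (median 0.07). Of 5 red blood cell markers 0 passed in either comparison, with medians of -0.03 in the XY and -0.02 in the Wnt4 null comparison. The part of these shifts in the ratios of Phlda2 and Cdkn1c was not tested. Wnt4 itself had -1.08 and -1.73 in the XY pair and -0.08 and -0.18 in the Wnt4 null pair. Whether its probe lies in the deleted stretch is not known here, so it does not check the genotype.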

How the data were processed

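The authors deposited 1 log2 ratio of the dyes per spot and array, without spot intensities in the material used here, so dim spots could not be filtered. Base 2 was read from the lowest value of XY replicate 1, -6.64, the log2 of 0.01, and was assumed for the other arrays. The method of normalization was not given in the sources used. Deposited medians lay between -0.0388 and 0.00840. Columns were centred on their median, and XY replicate 1 was turned. Which of the dyes is the numerator and how the authors centred the arrays stay unknown.

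Symbols were taken from the platform annotation and updated through RefSeq names of GRCm38.p6: of 17664 spots, 14010 had 1 symbol, 13 several and 3641 none. Spot numbers matched the annotation only after rows were exchanged for columns within every printed block (24 by 23 spots), which was read from the values. In that order probe pairs of 1 gene had a rank correlation of 0.315 in the XY and 0.130 in the Wnt4 null comparison (499 pairs), against -0.0067 and 0.0086 as deposited (467 pairs). All gene names rest on it.

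limma 3.58.1 in R 4.3.3 was fitted to the 12264 spots with 4 values, first without and then with a dye term, and p-values were adjusted by the Benjamini-Hochberg method at 0.05. The script was tested on simulated data without a dye effect, which does not check the fits where such an effect is present. A size rule asked for 1.5-fold in 1 direction on both arrays. Named genes were all members, up to 4 genes of each list and comparison that passed the size rule, any measured distal chromosome 7 neighbour and the 5 probes nearest Phlda2; others are marked where named. The members and lists were chosen with earlier results of these data known. Alternatives were the deposited centring, centring by printed block, equal scale, a 2-fold rule, other directions and leaving out each array.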

Additional observations from a re-analysis of the deposited data

Results flagged for a closer look

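Ascl2 and 10 genes of the other lists had both XY arrays on one side of 0 and both Wnt4 null arrays on the other. The share of all spots with this pattern is not given here, so nothing is read from the number of genes. Some ratios lay close to 0, such as -0.02 for Ascl2 and -0.01 for Fcer1g, both on XY replicate 2. The difference between the comparisons was not tested for any of these genes. As XY minus Wnt4 null means on the log2 scale, it was -0.13 for Ascl2, -0.18 for the imprinted gene Ppp1r9a, -0.25 for the imprinted protease inhibitor gene Tfpi2, 0.31 for the RNA-binding protein gene Igf2bp3 and 0.34 for Plag1, a zinc finger relative of Plagl1. The difference was -0.91 for Igfbp5, which encodes an IGF-binding protein and had -0.31 and -0.53 in the XY pair and 0.43 and 0.53 in the Wnt4 null pair. Among the cell type markers it was 0.46 for the endothelial gene Eng, -0.68 for C1qb, -0.68 for C1qc, -0.53 for Fcer1g and -0.56 for Pf4, of which the last 4 are on the macrophage list. Those 4 genes lay below 0 in the XY pair and above 0 in the Wnt4 null pair.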

How the results depend on the processing

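The call for Phlda2 in the Wnt4 null comparison depended on the dye term: without it the limma adjusted p ran from 0.338 to 0.99998 over the alternatives. With it the adjusted p was 0.0329 with the deposited centring, 0.00683 with centring by block and 0.00978 at equal scale, all added after the data were seen, and 0.919 with Wnt4 null replicate 1 turned or 0.99996 with XY replicate 1 as deposited. Cdkn1c had 0.0507, 0.0354 and 0.0252 under the first 3 of these. limma called 330 spots with the dye term in the XY comparison and 24 in the Wnt4 null comparison, against 0 without it. With the dye term and the deposited centring, block centring or equal scale, the counts were 414, 618 and 1078 in the XY and 55, 150 and 138 in the Wnt4 null comparison. Leaving out 1 array without the dye term gave 0 to 3 calls in the XY comparison and 0 in the Wnt4 null comparison. The fit with the dye term could not be run without an array, since no residual degrees of freedom remain.

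A 2-fold rule left 118 of 330 spots in the XY and 28 of 129 in the Wnt4 null comparison. With Wnt4 null replicate 1 turned, 706 spots passed 1.5-fold. With XY replicate 1 as deposited, 4 of 8 XY means changed sign: Cdkn1c (0.20), Igf2 (0.22), Mest (0.19) and Ascl2 (0.06). With Wnt4 null replicate 1 turned, 6 of 8 Wnt4 null means did: Phlda2 (0.19), Cdkn1c (0.33), Igf2 (0.19), Plagl1 (-0.31), Dlk1 (-0.05) and Ascl2 (-0.04). Leaving out 1 array changed the sign of Mest or Plagl1 in the XY comparison and of Igf2, Plagl1 or Mest in the Wnt4 null comparison, and each other centring or scaling that of Mest in the Wnt4 null comparison. Of 16 member means, the deposited centring moved 0 beyond the spread between arrays, centring by block 1 and equal scale 2, Phlda2 among them (-3.51 in the XY comparison). Precision is limited by the number of arrays, and without intensities signal over background is unknown.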
